A study of Mus musculus with 28 samples.

Results

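The 10 genes described here belong to the PPAR and PGC-1 axis and to fatty acid oxidation: Pparg, Ppara and Ppargc1a as regulators, Cd36, Cpt1a, Acadm, Acadl and Hadha along the route of a fatty acid into and through the mitochondrion, and Pdk4 and Ucp2 as mitochondrial genes of fuel choice. They were taken from the matrices by gene symbol, and all 10 were found among the 55341 gene rows of both count matrices. Ckm, the muscle creatine kinase, and Adipoq, the fat cell hormone adiponectin, were read beside them as measures of muscle and fat RNA. RNA was sequenced from 28 whole tumors of AB1-HA, a mouse mesothelioma cell line that carries the hemagglutinin antigen, grown under the skin of the right flank of female BALB/c.AusBP mice of 8 to 10 weeks, with 1 tumor per mouse. Treatment began when tumors measured 20 to 25 mm2, and all tumors were taken on day 7. The groups were PBS (vehicle, n = 4), ICB (immune checkpoint blockade, n = 5), 5-FU (5-fluorouracil, 75 mg/kg, into the tail vein, n = 5), cisplatin (6 mg/kg, into the peritoneum, n = 4), 5-FU+ICB (n = 5) and cisplatin+ICB (n = 5). ICB was 100 µg of anti-CTLA-4 once and 100 µg of anti-PD-L1 in 3 doses. All tumors grew from the same injected line. The PBS and ICB tumors served as the comparators of both chemotherapies, so that comparisons with PBS or with ICB are not independent of each other.

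PPARγ (Pparg) and PPARα (Ppara) are nuclear receptors that bind fatty acids and, with an RXR partner, switch on genes of lipid uptake, storage and oxidation, while PGC-1α (Ppargc1a) is a coactivator that joins them and other receptors to drive mitochondrial genes. A fatty acid enters the cell through carriers such as CD36, is joined to carnitine by CPT1 at the outer mitochondrial membrane, and is shortened inside by acyl-CoA dehydrogenases and the trifunctional enzyme. In tumors this route is known in cancer cells, in macrophages and in T cells, and it is strongest in muscle, brown fat and liver. A whole tumor sample contains all cells of the mass, so a lower level may stand for fewer cells of a type or for less RNA per cell, which bulk RNA cannot tell apart.

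After ICB, Cd36, Cpt1a and Ucp2 were higher than in PBS tumors and Acadm was lower. After 5-FU, Acadm and Acadl were lower and Cd36 was higher. After 5-FU+ICB, Pparg, Cd36, Cpt1a, Pdk4 and Ucp2 were higher and Acadm was lower, whereas no member passed the test between 5-FU+ICB and ICB. Cisplatin alone moved no member past the test, and cisplatin+ICB raised Cd36. Hadha passed in none of the 13 comparisons, and Ppara was too low to be tested. Beside these calls, 37.8% of all genes tested passed against PBS after ICB, 23% after 5-FU, 40.7% after 5-FU+ICB and 6.1% after cisplatin+ICB. Several calls depended on single tumors. With 1 tumor left out, Cd36 after 5-FU and Cpt1a and Pdk4 after 5-FU+ICB were each lost in 6 of 9 fits. Pparg after 5-FU+ICB was lost in 4 of 9 fits and Cd36 after cisplatin+ICB in 3 of 9. Without PBS replicate 2, 0 members passed after 5-FU.

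Some libraries stood apart. Total counts ran from 23541733 to 33950805 per tumor, and 3 counts, taken as the floor, were worth 0.0821 to 0.159 CPM (counts scaled to the same library total, with TMM factors over all 6 groups). The TMM factor ran from 0.685 in cisplatin+ICB replicate 1 to 1.15 in cisplatin replicate 1, and a low factor raises the CPM of a library. The mitochondrial share of counts ran from 1.03% in cisplatin+ICB replicate 1 to 16.1% in 5-FU+ICB replicate 5, and the summed level of 4 skin keratinocyte markers was 446 CPM in ICB replicate 2 against at most 20.3 CPM in any other tumor. The summed level of 11 skeletal muscle markers was 130.0 to 239.8 CPM in PBS tumors, 5.27 to 4426 CPM in ICB, 12.2 to 2155 CPM in 5-FU, 4.49 to 6839 CPM in 5-FU+ICB, 139 to 471 CPM in cisplatin and 84.0 to 1291 CPM in cisplatin+ICB. The 7 white fat markers summed to 38.8 to 74.1, 1.80 to 461, 21.6 to 567, 15.7 to 669, 63.2 to 115 and 77.8 to 436 CPM in the same order. Neither Ckm nor Adipoq was at 0 in any tumor. Of the labelled tissue's own markers, Vim (vimentin) was 4568 ± 691 CPM and Msln (mesothelin) 311 ± 38.7 CPM (mean ± SD, n = 4) in PBS tumors, whereas the mesothelial genes Wt1, Upk3b, Lrrn4 and Calb2 were at means of 0.112, 0.00830, 0.0640 and 0.157 CPM there. The 10 markers of mesothelium and the tumor line, 7 of them tested, summed to 4149 to 5709, 2884 to 4369, 3739.7 to 5637, 2809 to 5467, 3844 to 5401 and 3132 to 4518 CPM in PBS, ICB, 5-FU, 5-FU+ICB, cisplatin and cisplatin+ICB tumors. Against PBS, Wt1, at low levels, was higher after ICB, 5-FU, 5-FU+ICB and cisplatin+ICB, and after 5-FU+ICB Pdpn and Krt19 were also higher and Msln was lower (-2.28, SE 0.77, adjusted p = 0.0238), while none passed after cisplatin.

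PPAR response elements are built from repeats of the hexamer AGGTCA, which also serves other nuclear receptors. Of the 7 members that passed a test against PBS, the promoters of 4 are shown, chosen because they held this hexamer, while those of Acadl, Pdk4 and Ucp2 held none. Each line is the 250 bases before the RefSeq start of transcription (GRCm38.p6), 5′ to 3′ on the strand of the gene, with matches to AGGTCA on either strand in capitals. The windows are chr5:17835897-17836146 (minus strand), chr19:3323051-3323300 (plus strand), chr3:153944644-153944893 (minus strand) and, for the first of 3 starts of Pparg, chr6:115360894-115361143 (plus strand).
Cd36: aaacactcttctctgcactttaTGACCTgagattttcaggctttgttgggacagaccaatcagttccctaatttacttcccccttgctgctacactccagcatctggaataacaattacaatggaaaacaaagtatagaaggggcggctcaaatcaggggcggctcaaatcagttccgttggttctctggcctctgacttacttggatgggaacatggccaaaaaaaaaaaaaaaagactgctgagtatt
Cpt1a: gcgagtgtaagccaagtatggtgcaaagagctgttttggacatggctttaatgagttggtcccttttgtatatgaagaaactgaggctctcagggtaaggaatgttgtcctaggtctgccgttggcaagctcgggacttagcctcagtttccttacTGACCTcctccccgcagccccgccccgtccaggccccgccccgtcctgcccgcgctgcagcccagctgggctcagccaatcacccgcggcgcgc
Acadm: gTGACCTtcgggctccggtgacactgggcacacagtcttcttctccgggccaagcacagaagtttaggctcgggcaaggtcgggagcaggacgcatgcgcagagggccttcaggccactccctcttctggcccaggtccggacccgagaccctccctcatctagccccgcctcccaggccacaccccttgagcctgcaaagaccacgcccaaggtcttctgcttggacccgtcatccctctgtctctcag
Pparg: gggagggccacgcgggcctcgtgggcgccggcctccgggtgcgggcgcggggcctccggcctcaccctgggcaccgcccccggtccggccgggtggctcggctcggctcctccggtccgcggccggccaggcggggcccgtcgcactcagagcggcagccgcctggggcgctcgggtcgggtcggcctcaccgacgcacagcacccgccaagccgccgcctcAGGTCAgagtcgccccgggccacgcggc

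The first base of the match lay 228 bases before the start in Cd36, 94 in Cpt1a, 249 in Acadm and 28 in Pparg, and another start of Pparg had a match 9 bases before it. RefSeq promoters were found for all 10 members, and a match stood in at least 1 window of 4 of them. Over all 32851 promoter windows of this length, 14% held the hexamer, so its presence is common. No window of a member held the direct repeat of the hexamer with 1 base between the copies, which was present in 0.0335% of all windows, nor the 9 letters TCAAGGTCA of the estrogen-related receptors, present in 0.387%. These are matches of letters in a short window, and no binding was measured.

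Pparg, on chromosome 6 (115360951 to 115490399, GRCm38), encodes the PPAR best known from fat cells and macrophages. Its levels were 3.28, 2.91, 2.96 and 4.35 CPM in the 4 PBS tumors and 4.53, 4.85, 10.5, 4.84 and 3.29 CPM in the 5 ICB tumors. Pparg was at 4.85, 3.49, 7.57, 4.24 and 8.67 CPM after 5-FU and at 7.03, 2.91, 6.32, 8.28 and 16.3 CPM after 5-FU+ICB. Pparg in the cisplatin groups was 2.84, 3.50, 2.75 and 2.99 CPM with cisplatin alone and 2.17, 4.68, 4.12, 4.11 and 7.43 CPM with cisplatin+ICB. The PBS and cisplatin tumors formed a narrow band, and each of the other groups had at least 1 tumor within or below the PBS range and at least 1 above it. The group means (± SD) ran from 3.02 ± 0.337 CPM in cisplatin and 3.38 ± 0.669 in PBS through 4.50 ± 1.89 in cisplatin+ICB, 5.61 ± 2.83 in ICB and 5.76 ± 2.24 in 5-FU to 8.17 ± 4.95 in 5-FU+ICB, and neighbours in this order differed by less than the larger of their SDs. Against PBS the log2 fold change was 1.31, SE 0.43, adjusted p = 0.0216 for 5-FU+ICB (edgeR's quasi-likelihood F-test, p-values adjusted by Benjamini-Hochberg over all genes tested, as throughout). For ICB it was 0.76, SE 0.43, adjusted p = 0.162, and for 5-FU 0.79, SE 0.43, adjusted p = 0.175, and neither passed in this test. The 5-FU+ICB call was lost, at adjusted p = 0.0737, without 5-FU+ICB replicate 5, which had the highest Pparg, and at 0.0503, 0.0559 and 0.0532 without PBS replicates 1, 2 and 3 in turn, and with the replicate number as a block (1.02, adjusted p = 0.0646). With the mean log2 level of the muscle markers, or of the fat markers, as a covariate, fits chosen after seeing the data, the 5-FU+ICB call was kept at smaller values (0.91, adjusted p = 0.0195, and 0.80, adjusted p = 0.0358). ICB passed as well in these fits (0.84, adjusted p = 0.0233, and 1.01, adjusted p = 0.00753). The 5-FU value was also smaller and did not pass (0.46, adjusted p = 0.247, and 0.26, adjusted p = 0.543).

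Ppara, on chromosome 15 (85734983 to 85802819), encodes the receptor that governs fatty acid oxidation in liver and heart. It had between 0 and 12 counts per tumor, was at or under the floor of 3 counts in 14 of 28 tumors, and never exceeded 0.358 CPM. The group means lay between 0.0949 ± 0.0526 CPM in cisplatin and 0.219 ± 0.104 CPM in 5-FU+ICB, and no difference between groups was tested. It passed the filter on low counts in neither matrix, so 9 of the 10 members were tested.

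Ppargc1a, on chromosome 5 (51454250 to 51567726), encodes the coactivator PGC-1α. The level of this gene was 8.07, 5.86, 13.5 and 9.56 CPM in the 4 PBS tumors and 5.48, 1.57, 3.27, 12.3 and 4.42 CPM in the 5 ICB tumors. Ppargc1a was at 7.34, 8.23, 1.91, 6.53 and 3.08 CPM after 5-FU and at 1.60, 8.77, 3.32, 2.57 and 2.00 CPM after 5-FU+ICB. Ppargc1a in the cisplatin groups was 8.62, 11.8, 11.8 and 7.49 CPM with cisplatin alone and 4.98, 4.84, 8.68, 5.16 and 6.75 CPM with cisplatin+ICB. The lowest tumors, from 1.57 to 3.32 CPM, were 2 ICB tumors, 2 tumors after 5-FU and 4 after 5-FU+ICB, and each of these groups also had a tumor as high as the PBS range. The means were 9.93 ± 2.21 CPM in cisplatin, 9.24 ± 3.21 in PBS, 6.08 ± 1.64 in cisplatin+ICB, 5.42 ± 2.76 in 5-FU, 5.40 ± 4.10 in ICB and 3.65 ± 2.93 in 5-FU+ICB. No comparison with PBS passed in edgeR's test of the 4 groups of a matrix, but the value for 5-FU+ICB lay close to the threshold and passed in other fits. The log2 fold change was -1.31, SE 0.55, adjusted p = 0.0601 for 5-FU+ICB, -0.74, SE 0.55, adjusted p = 0.285 for ICB and -0.75, SE 0.55, adjusted p = 0.312 for 5-FU. Without 5-FU+ICB replicate 2, the high tumor of its group, the value for 5-FU+ICB was -1.90 (adjusted p = 0.00676) and passed. With all tumors kept it passed by DESeq2 (-1.28, adjusted p = 0.0468), in the joined fit of all 6 groups (-1.33, adjusted p = 0.0417), with the muscle covariate (-1.27, adjusted p = 0.0119) and with the fat covariate (-1.08, adjusted p = 0.0461). ICB passed with the muscle covariate (-1.12, adjusted p = 0.0189) and with the fat covariate (-1.25, adjusted p = 0.0183). The 5-FU value lay nearer to 0 in these fits and did not pass (-0.46, adjusted p = 0.371, and -0.24, adjusted p = 0.719).

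Cd36, on chromosome 5 (17781690 to 17888801), encodes the fatty acid carrier and scavenger receptor of macrophages, endothelium, muscle and fat. Cd36 stood at 16.0, 20.4, 13.4 and 15.1 CPM in the 4 PBS tumors and 48.2, 49.4, 144, 64.6 and 129 CPM in the 5 ICB tumors. Cd36 was at 30.1, 13.4, 77.2, 28.0 and 72.7 CPM after 5-FU and at 62.8, 36.7, 79.1, 81.7 and 173 CPM after 5-FU+ICB. Cd36 in the cisplatin groups was 16.6, 15.7, 13.5 and 29.0 CPM with cisplatin alone and 37.1, 91.1, 28.4, 58.2 and 111 CPM with cisplatin+ICB. Every ICB and 5-FU+ICB tumor was above every PBS tumor, and so was every cisplatin+ICB tumor, whereas 5-FU replicate 2 and 3 of the 4 cisplatin tumors lay at PBS levels. The mean rose from 16.2 ± 2.99 CPM in PBS to 87.0 ± 45.8 in ICB and 86.8 ± 51.6 in 5-FU+ICB, and these log2 fold changes were 2.42, SE 0.54, adjusted p = 0.00237, and 2.44, SE 0.54, adjusted p = 0.00245. For cisplatin+ICB, at 65.2 ± 35.3 CPM, it was 2.02, SE 0.43, adjusted p = 0.0179. For 5-FU, at 44.3 ± 28.8 CPM, it was 1.45, SE 0.52, adjusted p = 0.0461, and for cisplatin, at 18.7 ± 6.97 CPM, 0.21, SE 0.43, adjusted p = 1. The ICB and 5-FU+ICB calls were kept under each alternative run. The 5-FU call was lost when any single PBS tumor, 5-FU replicate 3 or 5-FU replicate 5 was left out (adjusted p from 0.0835 to 0.119), and the cisplatin+ICB call without PBS replicate 1, 3 or 4 (0.0780, 0.0763 and 0.0658). With all tumors kept, the 5-FU call was lost with the muscle covariate (0.96, adjusted p = 0.0712), the fat covariate (0.93, adjusted p = 0.16) and the replicate block (0.87, adjusted p = 0.113), with no filter on low counts (adjusted p = 0.0537) and in the joined fit (adjusted p = 0.081). The cisplatin+ICB call was lost with the replicate block (adjusted p = 0.0673) and in a fit of the compared groups alone (adjusted p = 0.0972). Cisplatin+ICB against cisplatin did not pass (1.81, SE 0.43, adjusted p = 0.0803), but without cisplatin+ICB replicate 1 the value was 2.01 (adjusted p = 0.0122) and without replicate 3 2.00 (adjusted p = 0.02).

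**Figure D1:**
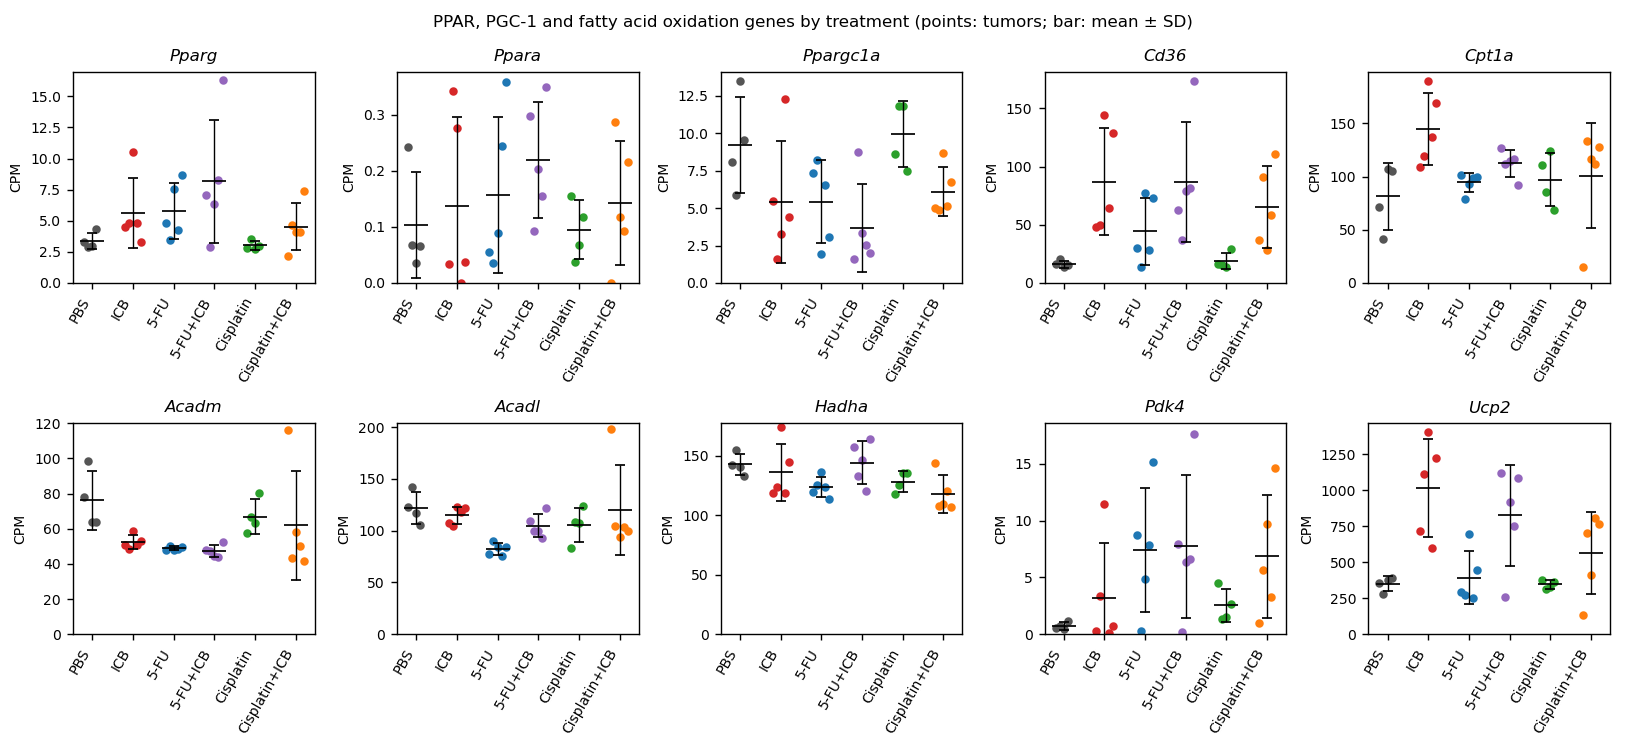
Level of each of the 10 members in CPM (vertical axis, from 0) in the 6 treatment groups; points are tumors and the black bar is the mean ± SD. Every ICB, 5-FU+ICB and cisplatin+ICB tumor had more Cd36 than every PBS tumor, and Acadm in the 5-FU tumors lay within 48.0 to 50.4 CPM, below every PBS tumor.

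Cpt1a, on chromosome 19 (3322334 to 3385733), encodes the carnitine palmitoyltransferase of most tissues, the gate of mitochondrial fatty acid entry. It was measured at 71.6, 41.4, 107 and 106 CPM in the 4 PBS tumors and 109, 119, 189.8, 137 and 169 CPM in the 5 ICB tumors. Cpt1a was at 101, 79.2, 93.2, 98.5 and 99.8 CPM after 5-FU and at 127, 112, 115, 116 and 92.4 CPM after 5-FU+ICB. Cpt1a in the cisplatin groups was 111, 85.8, 124 and 68.3 CPM with cisplatin alone and 14.7, 134, 116, 112 and 128 CPM with cisplatin+ICB. All ICB tumors were above all PBS tumors, while the other groups overlapped PBS, and cisplatin+ICB replicate 1 was far below every other tumor. The mean was 145 ± 34.0 CPM in ICB against 81.3 ± 31.2 in PBS, and the log2 fold change was 0.87, SE 0.21, adjusted p = 0.0035. For 5-FU+ICB, at 113 ± 12.6 CPM, the log2 fold change of 0.51, SE 0.21, adjusted p = 0.0488 was just past the thresholds, and the call was lost in 6 of 9 fits that left out 1 tumor (PBS replicates 1 and 2 and 5-FU+ICB replicates 1 to 4, adjusted p from 0.0502 to 0.156). It was also lost with all tumors kept, with either covariate, with no filter on low counts, in the joined fit and with the compared groups alone (adjusted p from 0.0581 to 0.32). The ICB call was lost in the joined fit (adjusted p = 0.0862) and in the cisplatin matrix (adjusted p = 0.157). 5-FU, at 94.4 ± 9.05 CPM, did not pass (0.25, SE 0.20, adjusted p = 0.371). Without cisplatin+ICB replicate 1, Cpt1a passed in cisplatin+ICB against PBS as well, at 0.69 (adjusted p = 0.0315), against 0.33, SE 0.44, adjusted p = 0.752 with all tumors.

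Acadm, on chromosome 3 (153922357 to 153944632), encodes the medium-chain acyl-CoA dehydrogenase, which opens the oxidation cycle for medium chains. Its levels stood at 78.1, 98.8, 63.9 and 63.6 CPM in the 4 PBS tumors and 50.9, 48.5, 58.6, 51.0 and 53.3 CPM in the 5 ICB tumors. Acadm was at 48.0, 50.4, 48.1, 48.6 and 49.8 CPM after 5-FU and at 48.2, 47.3, 44.7, 44.0 and 52.7 CPM after 5-FU+ICB. Acadm in the cisplatin groups was 57.3, 66.6, 63.4 and 80.6 CPM with cisplatin alone and 116, 43.6, 58.2, 50.2 and 41.5 CPM with cisplatin+ICB. ICB, 5-FU and 5-FU+ICB tumors were each below the whole PBS range, and the 5-FU tumors lay very close together. The mean was 76.1 ± 16.6 CPM in PBS, 67.0 ± 9.85 in cisplatin, 61.9 ± 30.9 in cisplatin+ICB, 52.5 ± 3.83 in ICB, 49.0 ± 1.05 in 5-FU and 47.4 ± 3.42 in 5-FU+ICB. Against PBS the log2 fold change was -0.53, SE 0.13, adjusted p = 0.00543 for ICB, -0.64, SE 0.13, adjusted p = 0.00575 for 5-FU and -0.67, SE 0.13, adjusted p = 0.00146 for 5-FU+ICB. These sizes were near the threshold of 0.5, and without PBS replicate 2, the highest PBS tumor, they were -0.34, -0.46 and -0.49, all short of it, with adjusted p of 0.0193, 0.0184 and 0.00429. The ICB value was also short of it, at -0.46, without ICB replicate 2, the tumor with keratinocyte RNA. With all tumors kept, the ICB call was absent in 8 of the 10 other fits. It was short of the size threshold by DESeq2, with DESeq2's size factors, with no filter or a strict filter on low counts, with the fat covariate and with the compared groups alone (from -0.498 to -0.420), and missed on the adjusted p in the joined fit (0.0557) and in the cisplatin matrix (0.125). The 5-FU call was lost in the joined fit (adjusted p = 0.0717). In the cisplatin+ICB group, replicate 1 was above every PBS tumor in TMM-scaled CPM and the other 4 were below. The TMM factor of replicate 1, 0.685, was the lowest of all tumors. By share of its library total, replicate 1 was below PBS replicate 2 (2189 of 27570127 counts against 2916 of 31291619). Without replicate 1 the value against PBS was -0.60 (adjusted p = 0.0143), against -0.29, SE 0.25, adjusted p = 0.57 with it.

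Acadl, on chromosome 1 (66830839 to 66863277), encodes the long-chain acyl-CoA dehydrogenase. The measured levels were 122, 142, 117 and 105 CPM in the 4 PBS tumors and 107, 105, 123, 118 and 122 CPM in the 5 ICB tumors. Acadl was at 77.7, 89.6, 84.1, 75.9 and 84.6 CPM after 5-FU and at 109, 100.1, 99.7, 92.9 and 122 CPM after 5-FU+ICB. Acadl in the cisplatin groups was 83.7, 109, 108 and 123 CPM with cisplatin alone and 198, 105, 94.3, 103 and 99.5 CPM with cisplatin+ICB. The 5-FU tumors were below every PBS, ICB and 5-FU+ICB tumor, and the remaining groups overlapped PBS. With a mean of 82.4 ± 5.55 CPM in 5-FU against 122 ± 15.4 in PBS, the log2 fold change was -0.56, SE 0.12, adjusted p = 0.00602. Adding ICB to 5-FU gave 105 ± 11.3 CPM, and although the 5-FU and 5-FU+ICB tumors did not overlap, their difference did not pass (0.36, SE 0.11, adjusted p = 0.159). Without PBS replicate 2 the 5-FU value against PBS was -0.45 (adjusted p = 0.0232), short of the size threshold, as it was with no filter (-0.45, adjusted p = 0.0317) and a strict filter (-0.49, adjusted p = 0.00924) on low counts, and in the joined fit the adjusted p was 0.0585. ICB against PBS was -0.07, SE 0.12, adjusted p = 0.666.

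Hadha, on chromosome 5 (30118304 to 30155162), encodes the α subunit of the mitochondrial trifunctional protein, which takes long chains through the later steps of the cycle. Its group means lay between 118 ± 15.7 CPM in cisplatin+ICB and 144 ± 18.0 CPM in 5-FU+ICB, with 143 ± 9.03 CPM in PBS, and single tumors ran from 107 to 174 CPM. All treated groups overlapped PBS. The log2 fold change against PBS was -0.05, SE 0.13, adjusted p = 0.764 for ICB, -0.20, SE 0.13, adjusted p = 0.242 for 5-FU, 0.03, SE 0.13, adjusted p = 0.848 for 5-FU+ICB and -0.26, SE 0.15, adjusted p = 0.299 for cisplatin+ICB. In the annotation, 75 exon bases of Hadha are shared with Garem2 on the opposite strand and 305 of Ucp2 with Dnajb13, and whether the libraries kept the strand is not given in the sources used here.

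Pdk4, on chromosome 6 (5483351 to 5496309), encodes the pyruvate dehydrogenase kinase that holds back glucose oxidation when fatty acids are burned, and it is abundant in muscle and heart. Tumors ranged widely, with 0.568, 0.678, 0.433 and 1.20 CPM in the 4 PBS tumors and 0.238, 3.37, 11.5, 0.122 and 0.755 CPM in the 5 ICB tumors. Pdk4 was at 8.73, 0.287, 4.90, 7.88 and 15.2 CPM after 5-FU and at 7.96, 0.155, 6.36, 6.58 and 17.6 CPM after 5-FU+ICB. Pdk4 in the cisplatin groups was 4.53, 1.37, 1.54 and 2.69 CPM with cisplatin alone and 0.954, 5.67, 9.69, 3.31 and 14.6 CPM with cisplatin+ICB. All PBS tumors were at or below 1.20 CPM, every cisplatin tumor was above them, and the other groups each mixed tumors near or below the PBS range with tumors several times higher. The means were 0.718 ± 0.333 CPM in PBS, 2.53 ± 1.45 in cisplatin, 3.19 ± 4.82 in ICB, 6.85 ± 5.42 in cisplatin+ICB, 7.39 ± 5.45 in 5-FU and 7.74 ± 6.30 in 5-FU+ICB, where the SD of ICB exceeded its mean. Against PBS only 5-FU+ICB passed (3.45, SE 1.27, adjusted p = 0.0351). The log2 fold change was 3.36, SE 1.27, adjusted p = 0.0575 for 5-FU, 2.16, SE 1.21, adjusted p = 0.158 for ICB, 3.26, SE 1.08, adjusted p = 0.0764 for cisplatin+ICB and 1.82, SE 1.06, adjusted p = 1 for cisplatin. The 5-FU+ICB call was lost without any 1 of the PBS tumors, 5-FU+ICB replicate 1 or replicate 5 (adjusted p from 0.0515 to 0.0834). The ICB value rested on ICB replicate 3, the ICB tumor with the most muscle RNA, and was 0.70, adjusted p = 0.642 without it. 5-FU passed without 5-FU replicate 2 (3.67, adjusted p = 0.0358), and cisplatin+ICB without its replicate 1 (3.60, adjusted p = 0.0143). With all tumors kept, the 5-FU+ICB call was lost with the replicate block (2.77, adjusted p = 0.126), 5-FU passed by DESeq2 (3.44, adjusted p = 0.0134) and with the compared groups alone (3.43, adjusted p = 0.0244), and cisplatin+ICB passed by DESeq2 (3.35, adjusted p = 0.00608).

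Pdk4 moved with muscle and fat RNA. Ckm stood at 10.2, 28.7, 9.86 and 20.3 CPM in the 4 PBS tumors and 1.26, 19.0, 502, 0.609 and 4.31 CPM in the 5 ICB tumors. Ckm was at 159.5, 0.790, 175, 121 and 167 CPM after 5-FU and at 62.2, 0.651, 96.0, 54.1 and 675 CPM after 5-FU+ICB. Ckm in the cisplatin groups was 38.4, 24.3, 9.89 and 25.0 CPM with cisplatin alone and 17.8, 31.5, 103, 14.9 and 101 CPM with cisplatin+ICB. The 4 tumors with the least Ckm, ICB replicates 1 and 4, 5-FU replicate 2 and 5-FU+ICB replicate 2, had the 4 lowest values of Pdk4, and ICB replicate 3 and 5-FU+ICB replicate 5, with the most Ckm, had 11.5 and 17.6 CPM of Pdk4. Over the 28 tumors, on log2 CPM, Pearson's r was 0.919 and Spearman's rho 0.918, with adjusted permutation p-values of 5e-05 and 6e-05. The unadjusted p of 1e-05 is the smallest that 100000 permutations can give, and 30 relations were computed. Without the 2 tumors farthest from the median of Ckm, r was 0.89, and for deviations from the group means 0.946. For Adipoq, Pearson's r was 0.824 and Spearman's rho 0.833, with adjusted permutation p-values of 5e-05 and 6e-05, and r was 0.844 without the 2 farthest tumors and 0.844 within groups. With the muscle covariate, the log2 fold change of Pdk4 against PBS was 1.12 for ICB, 1.48 for 5-FU, 1.47 for 5-FU+ICB and 1.99 for cisplatin+ICB, each smaller than without it and with adjusted p of 0.0174, 0.0103, 0.00505 and 0.015. With the fat covariate these values were 1.93, 1.04, 1.63 and 1.74, with adjusted p of 0.0143, 0.238, 0.0374 and 0.123, so that ICB and 5-FU+ICB passed and 5-FU and cisplatin+ICB did not.

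Ucp2, on chromosome 7 (100493337 to 100502020), encodes a mitochondrial carrier of the uncoupling protein family that is abundant in leukocytes. It was at 355, 277, 379 and 390.0 CPM in the 4 PBS tumors and 718, 1115, 1402, 599.9 and 1221 CPM in the 5 ICB tumors. Ucp2 was at 294, 274, 694, 252 and 442 CPM after 5-FU and at 1117, 256, 920.3, 749 and 1086 CPM after 5-FU+ICB. Ucp2 in the cisplatin groups was 379, 314, 331 and 359.8 CPM with cisplatin alone and 131, 702, 411, 807 and 763 CPM with cisplatin+ICB. All 5 ICB tumors were above the PBS range, as were 4 tumors of the 5-FU+ICB group, while replicate 2 of that group and cisplatin+ICB replicate 1 were below it. The mean was 1011 ± 340.1 CPM in ICB, 826 ± 351 in 5-FU+ICB and 563 ± 287 in cisplatin+ICB, against 350.4 ± 50.7 in PBS, 391 ± 185 in 5-FU and 346 ± 29.2 in cisplatin. ICB and 5-FU+ICB passed against PBS (1.56, SE 0.39, adjusted p = 0.00507, and 1.27, SE 0.39, adjusted p = 0.014), under each alternative run. 5-FU (0.18, SE 0.38, adjusted p = 0.742, and below 0 with either covariate and with the replicate block) and cisplatin+ICB (0.70, SE 0.38, adjusted p = 0.293) did not, although cisplatin+ICB passed without its replicate 1 (1.03, adjusted p = 0.0071). The difference of 5-FU+ICB from 5-FU was 1.09, SE 0.36, adjusted p = 0.166, and without 5-FU+ICB replicate 2 it was 1.33 (adjusted p = 0.02) and passed.

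Several members moved with Ptprc, the CD45 gene of all leukocytes, which was 92.1 ± 12.7 CPM in PBS, 195 ± 99.0 in 5-FU, 114 ± 41.0 in cisplatin, 242 ± 108 in cisplatin+ICB, 364 ± 82.4 in ICB and 402 ± 223 in 5-FU+ICB. For Ucp2 and Ptprc, Pearson's r was 0.874 and Spearman's rho 0.86, with adjusted permutation p-values of 5e-05 and 6e-05, with r = 0.886 without the 2 farthest tumors and 0.854 within groups. For Cd36 and Ptprc, Pearson's r was 0.9 and Spearman's rho 0.853, with adjusted permutation p-values of 5e-05 and 6e-05 (r = 0.875 without the 2 farthest tumors, 0.762 within groups). Ppargc1a went the other way. In its relation to Ptprc, Pearson's r was -0.8 and Spearman's rho -0.808, with adjusted permutation p-values of 5e-05 and 6e-05 (r = -0.756 without the 2 farthest tumors, -0.734 within groups). Pparg rose with Ptprc: Pearson's r was 0.767 and Spearman's rho 0.706, with adjusted permutation p-values of 5e-05 and 0.0003 (r = 0.709 without the 2 farthest tumors, 0.744 within groups). It also rose with Ckm, where Pearson's r was 0.627 and Spearman's rho 0.641, with adjusted permutation p-values of 0.0018 and 0.00124 (r = 0.683 and 0.752). With Adipoq, Pearson's r for Pparg was 0.502 and Spearman's rho 0.521, with adjusted permutation p-values of 0.0186 and 0.0161 (r = 0.612 and 0.744). Between Ppargc1a and Ckm Pearson's r was -0.495 and Spearman's rho -0.513, with adjusted permutation p-values of 0.0186 and 0.0192 (r = -0.42 and -0.607). Between Ppargc1a and Adipoq Pearson's r was -0.376 and Spearman's rho -0.425, with adjusted permutation p-values of 0.0843 and 0.0441 (r = -0.394 and -0.609). Weaker relations to Ptprc also passed for 4 members. For Acadm, Pearson's r was -0.543 and Spearman's rho -0.502, with adjusted permutation p-values of 0.00703 and 0.0192 (r = -0.565 and -0.251). For Pdk4, Pearson's r was 0.469 and Spearman's rho 0.493, with adjusted permutation p-values of 0.0276 and 0.0193 (r = 0.368 and 0.642). For Cpt1a, Pearson's r was 0.398 and Spearman's rho 0.482, with adjusted permutation p-values of 0.049 and 0.0209 (r = 0.472 and 0.239). The fourth was Ppara, with its few counts, where Pearson's r was 0.466 and Spearman's rho 0.464, with adjusted permutation p-values of 0.0276 and 0.0273 (r = 0.368 and 0.533). Within groups, r was weak for Acadm and Cpt1a. The permutations ran over all 28 tumors regardless of treatment, so their p-values also cover differences between groups. No p was computed within groups. The 6 macrophage markers summed to 1126 to 1553, 2262 to 6112, 1471 to 4799, 1201 to 5008, 731 to 1576 and 1442 to 2502 CPM in PBS, ICB, 5-FU, 5-FU+ICB, cisplatin and cisplatin+ICB tumors, and 6, 2, 3, 0 and 1 of them were called higher than in PBS in the treated groups. The 5 T cell markers summed to 21.8 to 32.4, 120.4 to 439, 31.9 to 309, 37.1 to 909, 13.3 to 39.2 and 28.1 to 256 CPM in the same order, with 5, 3, 5, 0 and 3 called higher. The 5 endothelial markers summed to 69.5 to 129.8 CPM in PBS, 134 to 272 in ICB, 133 to 305 in 5-FU, 158 to 638 in 5-FU+ICB, 75.6 to 105 in cisplatin and 35.0 to 165 in cisplatin+ICB, and 2 of 5 were called higher than in PBS after ICB, 2 after 5-FU and all 5 after 5-FU+ICB, while 0 passed in either cisplatin group. The endothelial count after ICB was 1 without ICB replicate 2 and 1 without ICB replicate 3. For Ppara, with its few counts, and Ckm Pearson's r was 0.624 and Spearman's rho 0.634, with adjusted permutation p-values of 0.0018 and 0.00124 (r = 0.595 without the 2 farthest tumors, 0.619 within groups). Between Ppara and Adipoq Pearson's r was 0.544 and Spearman's rho 0.495, with adjusted permutation p-values of 0.00705 and 0.0193 (r = 0.41 and 0.583). The part of leukocyte, endothelial, muscle and fat RNA in the differences between groups was not tested apart from the muscle and fat covariate fits.

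**Figure D2:**
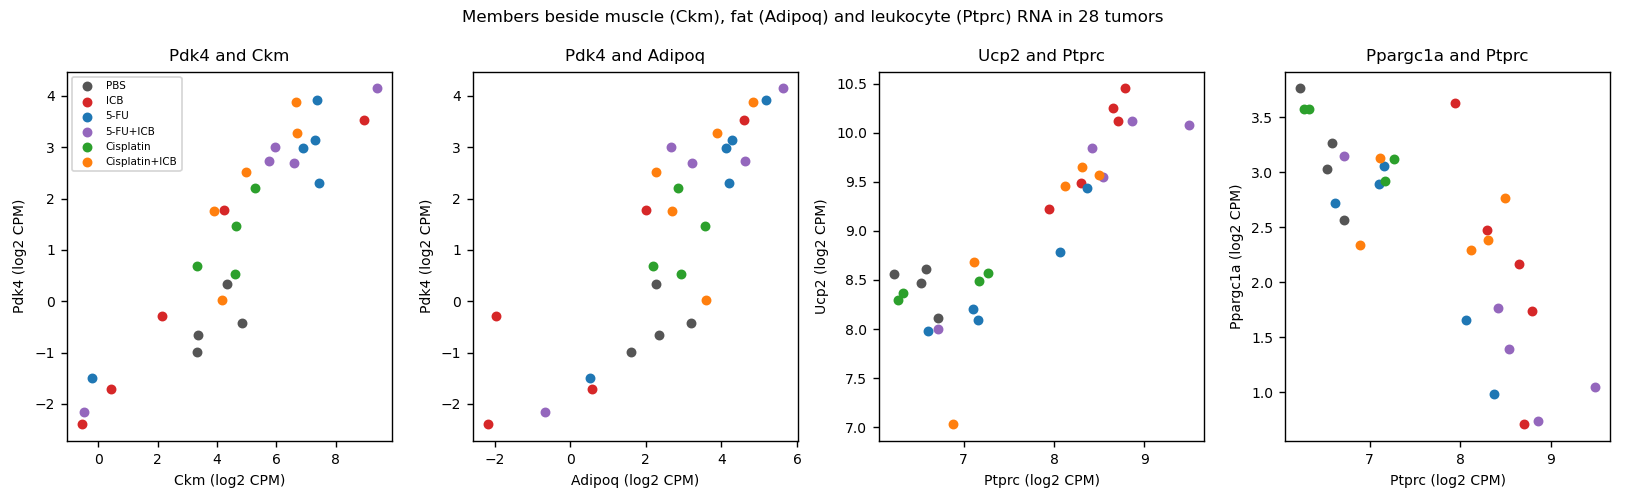
Log2 CPM of Pdk4 against Ckm and Adipoq, and of Ucp2 and Ppargc1a against Ptprc; each point is 1 of 28 tumors, colored by treatment. Pdk4 increased with Ckm (r = 0.919), Ucp2 increased with Ptprc (r = 0.874) and Ppargc1a decreased with Ptprc (r = -0.800).

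By comparison, ICB against PBS changed 4 of the 9 tested members, 3 higher and 1 lower, where 37.8% of all genes tested passed (19% higher and 18.8% lower). 5-FU against PBS changed 3 of 9 members, 1 higher and 2 lower, beside 23% of all genes (9.98% higher, 13% lower). 5-FU+ICB against PBS changed 6 of 9, 5 higher and 1 lower, beside 40.7% of all genes (21.9% higher, 18.7% lower). With 9 members, these shares were close to those of all genes after ICB and 5-FU and somewhat above after 5-FU+ICB, which was not tested. The median log2 fold change of the tested members was 0.76, 0.18 and 0.51 in these comparisons, and that of all genes -0.03, -0.01 and -0.04. Without PBS replicate 2, the numbers of members were 3, 0 and 2, and without PBS replicate 1 the last was 3 (Cd36, Acadm and Ucp2). These comparisons share the PBS tumors.

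The question of what 5-FU adds to ICB was addressed by 5-FU+ICB against ICB. There, 0 of 9 members passed edgeR's test and 0 had an unadjusted p under 0.05, beside 0.229% and 10.9% of all genes by the same 2 criteria, and DESeq2 also called 0. Pparg differed by 0.55, SE 0.40, adjusted p = 0.657, Ppargc1a by -0.57, SE 0.52, adjusted p = 0.742 and Cpt1a by -0.36, SE 0.19, adjusted p = 0.519 on the log2 scale, and with the fat covariate the sign turned for Pparg (-0.21) and Ppargc1a (0.17). Single tumors moved these values. Pparg was 0.14 without 5-FU+ICB replicate 5 and 0.90 without ICB replicate 3, and Ppargc1a was -1.16 without 5-FU+ICB replicate 2 and -0.03 without ICB replicate 4, while none of them passed. In what follows, the share of all genes that passed stands first and the share at an unadjusted p under 0.05 second. 5-FU+ICB against 5-FU also gave 0 members, with 2 (Acadl and Ucp2) at an unadjusted p under 0.05, beside 0.0112% and 16.6% of all genes, and DESeq2 called 0. Leaving out 5-FU replicate 3 or 5-FU+ICB replicate 2 gave 1 member, Ucp2. The interaction of 5-FU and ICB, the effect of 5-FU in the presence of ICB minus its effect without, gave 0 members, 3 at an unadjusted p under 0.05 and 0 by DESeq2, beside 0.0893% and 23.9% of all genes. Those 3 were Cpt1a (-0.61, SE 0.28, adjusted p = 0.195), Acadm (0.49, SE 0.18, adjusted p = 0.119) and Acadl (0.43, SE 0.16, adjusted p = 0.125), and Acadm passed without PBS replicate 3 (0.60, adjusted p = 0.0411).

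Cisplatin against PBS changed 0 of 9 members by edgeR's test, with 0 at an unadjusted p under 0.05 and 0 by DESeq2, where 0% of all genes passed and 1.78% had such a p. Cisplatin+ICB against PBS changed 1 of 9 members, Cd36, beside 6.1% of all genes (4.7% higher, 1.4% lower). This count depended on single tumors: it was 5 without cisplatin+ICB replicate 1 (Cd36, Cpt1a, Pdk4 and Ucp2 higher, Acadm lower) and 0 without PBS replicate 1, 3 or 4. With cisplatin+ICB against ICB 0 members passed, 1 (Ucp2, -0.84, SE 0.36, adjusted p = 0.298) having an unadjusted p under 0.05, beside 0% and 15.9% of all genes, and DESeq2 called 0. Cisplatin+ICB against cisplatin gave 0 members by edgeR and 1 by DESeq2 (Cd36), with 1 at an unadjusted p under 0.05, beside 0% and 14.2% of all genes. Without cisplatin+ICB replicate 1 it gave 2, Cd36 and Ucp2, and without replicate 3 it gave 1. The interaction of cisplatin and ICB gave 0 members, 0 at an unadjusted p under 0.05 and 0 by DESeq2, beside 0% and 7.14% of all genes.

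Between the chemotherapies, 5-FU against cisplatin gave 0 members by edgeR and 0 by DESeq2, with 4 at an unadjusted p under 0.05, beside 0.362% and 15.5% of all genes. These 4 were Cd36 (1.24, SE 0.50, adjusted p = 0.233), Pparg (0.93, SE 0.40, adjusted p = 0.268), Acadm (-0.45, SE 0.21, adjusted p = 0.302) and Acadl (-0.36, SE 0.17, adjusted p = 0.318). Acadm did not overlap between these groups, being lower in every 5-FU tumor. 5-FU+ICB against cisplatin+ICB gave 0 members by edgeR and 0 by DESeq2, with 2 (Pparg and Hadha) at an unadjusted p under 0.05, beside 0.297% and 25.7% of all genes. Pparg differed there by 0.85, SE 0.37, adjusted p = 0.157, and without 5-FU+ICB replicate 2 by 1.07 (adjusted p = 0.0494).

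**Figure D3:**
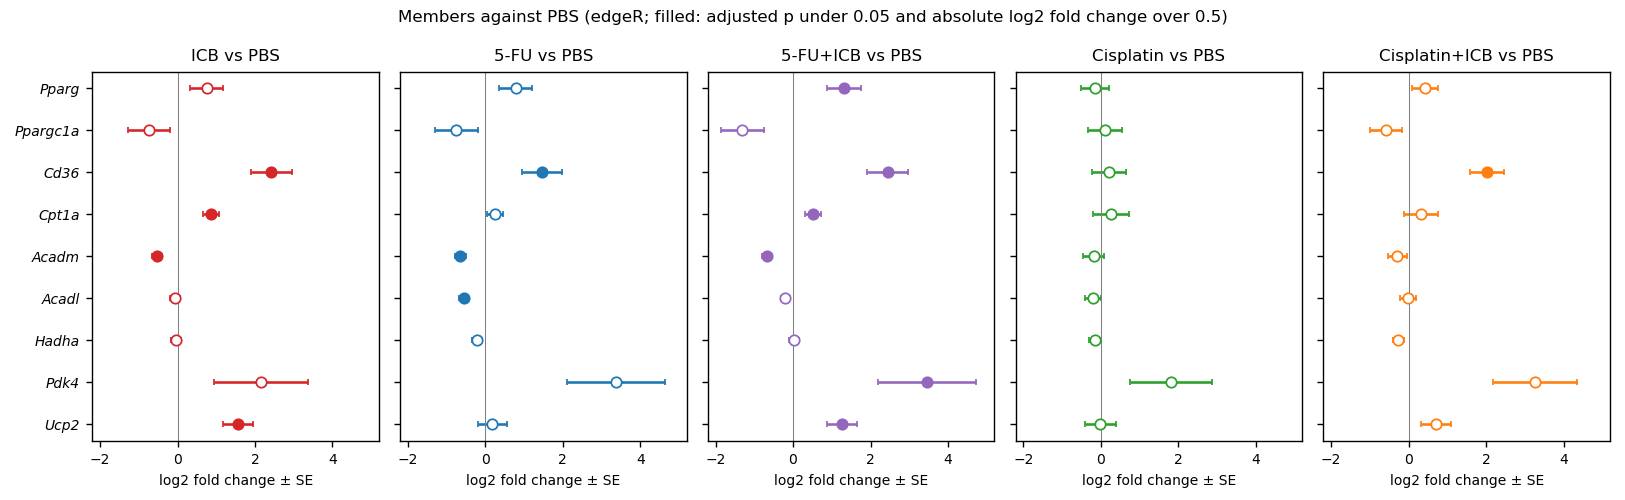
Log2 fold change against PBS (horizontal axis, ± SE, edgeR) of the 9 tested members in the 5 treated groups; filled points passed (adjusted p under 0.05, log2 fold change beyond 0.5 in either direction). Cd36 was filled in 4 of the 5 groups and Acadm, to the left of 0, in 3.

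A further 71 genes of the pathway, in 7 lists by role, were read beside the members, and 69 of them were tested. ICB against PBS changed 24 of 69, 13 higher and 11 lower, 5-FU 19 of 69 (6 higher, 13 lower) and 5-FU+ICB 32 of 69 (16 higher, 16 lower), beside 37.8%, 23% and 40.7% of all genes, and whether these shares differ was not tested. As percentages the pathway counts were 34.8%, 27.5% and 46.4%. Their medians were -0.13, -0.15 and 0.02. The other enzymes of mitochondrial β-oxidation, 13 in number, fell or did not pass. Of them 6 were lower after ICB (Hadh, Decr1, Etfa, Etfb, Echs1 and Eci1), 7 after 5-FU (the same 6 and Acads) and 5 after 5-FU+ICB (the same without Acads and Etfb), and 0 were higher, where 18.8%, 13% and 18.7% of all genes were lower. Their median log2 fold change was -0.48, -0.62 and -0.48, and all 13 were below 0 in each of these comparisons. The comparisons share the PBS tumors, and the 13 enzymes were not refitted without PBS replicate 2. Leaving out that tumor took away the calls of Acadm and Acadl against PBS. Echs1, the short-chain enoyl-CoA hydratase, was 109.5 ± 46.5 CPM in PBS and 51.3 ± 2.38 CPM in 5-FU (-1.11, SE 0.22, adjusted p = 0.00428). Without ICB replicate 2, 3 of the 13 were lower after ICB (Echs1, Etfb and Eci1 no longer passed), and Echs1 did not pass without ICB replicate 3 either. Echs1 was 71.4 ± 7.04 CPM in ICB (-0.62, SE 0.22, adjusted p = 0.0289) and 57.1 ± 8.89 CPM in 5-FU+ICB (-0.94, SE 0.22, adjusted p = 0.00299). In cisplatin+ICB 0 of the 13 passed, with a median of -0.16.

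Of 8 genes of peroxisomal oxidation, which shortens very long chains, 4 were higher after ICB and 3 after 5-FU+ICB, Acox3 and Ehhadh among them in both, and 0 were lower, where 19% and 21.9% of all genes were higher. The others did not pass, and the lowest values were -0.14 and -0.15. The median of the list was 0.48 and 0.23, and 0 of 8 passed after 5-FU (median 0.08). Acox3, a peroxisomal acyl-CoA oxidase, was 24.4 ± 5.44 CPM in PBS and 77.8 ± 16.6 CPM in ICB (1.71, SE 0.28, adjusted p = 0.000485). Of 10 genes of fatty acid uptake, binding and activation, 3 were higher and 1 lower after ICB, 2 and 1 after 5-FU, and 4 and 2 after 5-FU+ICB. For this and the next 3 lists, the shares of all genes were 19% higher and 18.8% lower after ICB, 9.98% and 13% after 5-FU, and 21.9% and 18.7% after 5-FU+ICB. Acsl1, which activates long-chain fatty acids, rose from 27.3 ± 4.30 CPM in PBS to 191 ± 68.2 CPM in ICB (2.84, SE 0.40, adjusted p = 0.00017), with no overlap, and to 67.3 ± 25.5 CPM in 5-FU (1.33, SE 0.37, adjusted p = 0.0175). Fabp5, an epidermal and macrophage fatty acid binding protein, was higher after ICB (2.19, SE 0.61, adjusted p = 0.00911) and also without ICB replicate 2, the tumor with keratinocyte RNA (2.03, adjusted p = 0.0227), and Lpl, the lipoprotein lipase of muscle, fat and macrophages, after 5-FU (1.76, SE 0.56, adjusted p = 0.0301). Among 12 receptors and coregulators, 4 were higher after ICB (Ppard, Rxra, Ppargc1b and Nrip1), 2 higher and 1 lower after 5-FU, and 3 higher and 1 lower after 5-FU+ICB, so that 33.3%, 25% and 33.3% of the list passed, beside 37.8%, 23% and 40.7% of all genes. The carnitine shuttle had 1 higher and 1 lower of 8 after ICB, where Cpt1c fell (-1.19, SE 0.41, adjusted p = 0.0293, lost without ICB replicate 2 or 3), 1 higher after 5-FU, and 2 higher and 2 lower after 5-FU+ICB. Fatty acid synthesis had 1 lower of 7 after ICB (0 without ICB replicate 3), 1 lower after 5-FU and 2 lower after 5-FU+ICB.

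Other PPAR targets and genes of the fuel switch held large changes, several of them at low levels. Pdk1, the kinase of the same family that is induced by low oxygen, fell from 67.3 ± 15.9 CPM in PBS to 16.6 ± 1.99 CPM in 5-FU (-2.02, SE 0.20, adjusted p = 0.000139) and 21.9 ± 4.57 CPM in 5-FU+ICB (-1.60, SE 0.20, adjusted p = 7.43e-05), while it was 52.3 ± 8.55 CPM in ICB and 68.2 ± 12.5 CPM in cisplatin. It was the 1 pathway gene that passed in 5-FU+ICB against ICB (-1.25, SE 0.19, adjusted p = 0.0161), in 5-FU against cisplatin (-2.04, SE 0.35, adjusted p = 0.0119) and in 5-FU+ICB against cisplatin+ICB (-1.71, SE 0.33, adjusted p = 0.0318). Klf15, a regulator of muscle and fat metabolism, was 0.170 ± 0.106 CPM in PBS, 1.14 ± 0.759 CPM in 5-FU (2.71, SE 0.84, adjusted p = 0.0276), 1.38 ± 0.876 CPM in 5-FU+ICB (2.99, SE 0.85, adjusted p = 0.00964) and 0.904 ± 0.223 CPM in cisplatin+ICB (2.40, SE 0.61, adjusted p = 0.0313). Ucp3, the uncoupling protein of muscle, was higher after 5-FU+ICB (3.19, SE 1.07, adjusted p = 0.0227), with groups that overlapped. Fgf21, a hormone induced by PPARα in liver, was lower in all 3 comparisons at levels near the floor (the ICB call was lost without ICB replicate 3, -1.90, adjusted p = 0.0848), from 0.742 ± 0.160 CPM in PBS to 0.148 ± 0.200 CPM in ICB, 0.109 ± 0.0626 CPM in 5-FU and 0.0905 ± 0.104 CPM in 5-FU+ICB. Acot1, a cytosolic thioesterase, was lower after ICB (-1.24, SE 0.38, adjusted p = 0.0154) and 5-FU+ICB (-1.47, SE 0.38, adjusted p = 0.00598). Cisplatin+ICB against PBS changed 2 of 69 genes, Klf15 and Acsl3 (-0.92, SE 0.22, adjusted p = 0.025), an enzyme that activates long-chain fatty acids. The muscle markers had a median log2 fold change of 2.21, 2.71 and 3.38 against PBS after ICB, 5-FU and 5-FU+ICB, with 0, 1 and 1 of 11 passing, and the white fat markers 0.59, 2.45 and 2.15, with 0, 0 and 1 of 7. After ICB both medians rested on ICB replicate 3. Without it they were -0.77 for muscle and -1.13 for fat, and the middle ICB tumor was below the middle of the PBS group, with a median sum of 69.3 against 197 CPM for muscle and 14.6 against 56.0 CPM for fat. Their part in the changes of Klf15, Ucp3 and Lpl was not tested.

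**Figure D4:**
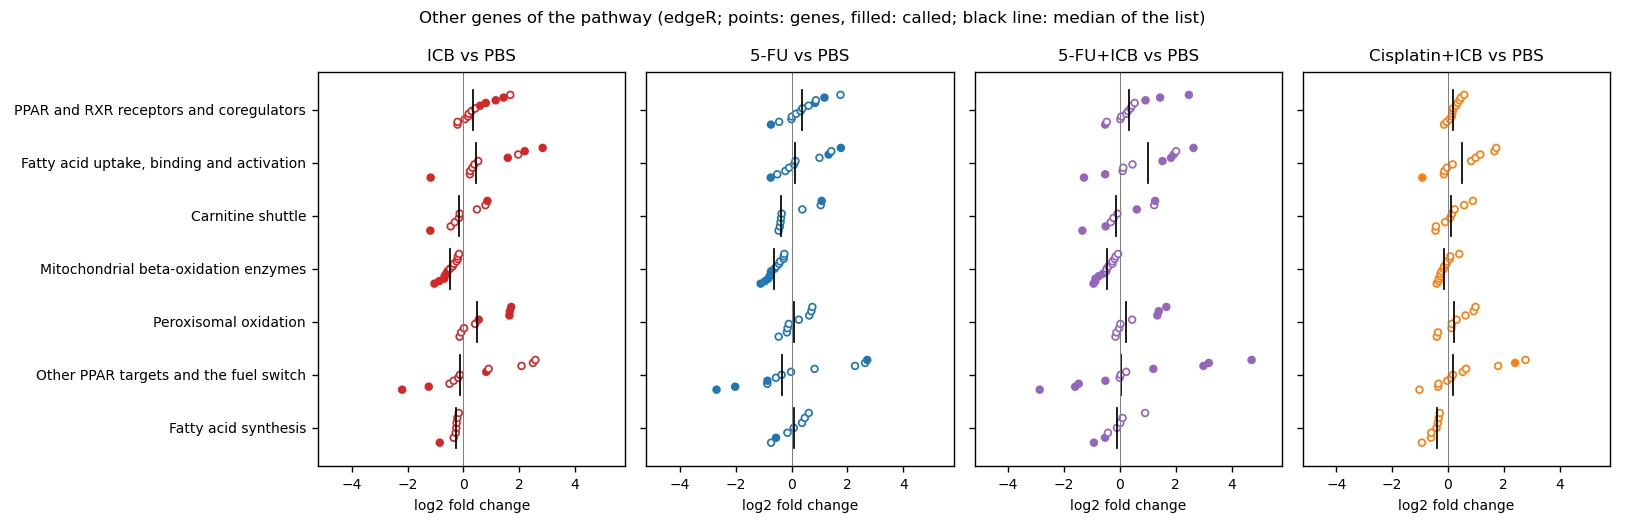
Log2 fold change against PBS (horizontal axis, edgeR) of the 69 tested pathway genes in 7 lists; points are genes, filled where they passed, and black lines are list medians. All 13 mitochondrial β-oxidation enzymes lie to the left of 0 after ICB, 5-FU and 5-FU+ICB.

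The genes whose log2 CPM followed each member most closely over the 28 tumors, among 13335 with a mean of at least 50 counts, are given as a description with Pearson's r. For Pparg they were Lims2 (0.93), Galnt15 (0.91) and Lpl (0.91), for Ppargc1a Btbd11 (0.95), Met (0.94) and Mastl (0.93), and for Cd36 B430306N03Rik (0.92), Ly6a (0.92) and Cd1d1 (0.92). Pdk4 was followed by Gpd1 (0.95), Atp2a1 (0.95) and Pygm (0.95), of which Atp2a1 encodes a calcium pump and Pygm a glycogen phosphorylase of muscle fibers, and Ucp2 by Nckap1l (0.98), Chmp1b (0.98) and Tpra1 (0.98). Cpt1a was closest to Smcr8 (0.97), Usp8 (0.97) and Dcp1a (0.97), Acadm to Coq9 (0.96), Nipsnap2 (0.96) and Gatb (0.96), Acadl to Ghitm (0.95), Psmd8 (0.95) and Atp6v1e1 (0.94) and Hadha to Clptm1 (0.88), Rsu1 (0.87) and Edc3 (0.86). For Ppara, with its few counts, they were Crispld2 (0.80), Adcy2 (0.79) and Irx1 (0.78). All points share the 28 libraries and their depth.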

How the data were processed

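The authors assigned 100-base single-end reads of whole tumors to GRCm38/mm10 transcripts with kallisto 0.46.0 (bcl2fastq 2.20.0.422 before it, per the submitters' processing notes), used tximport for gene totals, and deposited the estimated counts without normalization. The 2 matrices, by chemotherapy, repeat the same 9 tumors of the PBS and ICB groups. Of these values 23.7% were not whole and were rounded. Groups came from the sample titles, which give no batch. In R 4.3.3 with edgeR 4.0.16, each matrix was filtered with filterByExpr, TMM normalized and fitted with glmQLFit with its 4 groups (17916 and 17819 genes), and the chemotherapies were compared in a joined fit of 6 groups (18521 genes). A gene passed with a Benjamini-Hochberg adjusted p under 0.05 and a log2 fold change beyond 0.5 in either direction. Levels are TMM-scaled CPM, log2 CPM used a prior count of 2, and standard errors came from the F statistic. Permutation tests (two-sided), with values permuted over all tumors regardless of treatment, were used for relations across tumors.

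All members are described, and of the pathway lists at most the 3 genes with the largest change in each direction per comparison are named with values. Some genes of these lists are counted but not reported by name here. The members, lists and tests were chosen with earlier results of these data known. On simulated data of 5-FU+ICB against PBS (17916 genes, 200 with a log2 change of 2), edgeR called 80.5% of the changed genes, with 1.83% of its calls unchanged genes, and DESeq2 1.42.0 called 87%, with 17.5%. That setting differs from these data, where 40.7% of genes passed and a called member, Cpt1a, changed by only 0.51. The simulated rates therefore do not measure the power or error of the member tests. The alternatives were DESeq2, its size factors, other filters, the replicate number as a block, other sets of groups, each tumor left out, and muscle or fat markers as a covariate. Each tumor came from a different mouse. Floors cover counting error only, whereas SDs and standard errors hold the spread between tumors.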

Additional observations from a re-analysis of the deposited data

Results flagged for a closer look

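In each group the tumor at either end was compared with its nearest neighbour, relative to the range of the group, on log2 CPM. Over 60 combinations of a member and a group, 4 values, from 2 tumors, stood apart, where chance alone flags about 1 in 20 groups. Cpt1a in cisplatin+ICB replicate 1 was 14.7 CPM, and the next tumor of the group was at 112 CPM. The same tumor had 198 CPM of Acadl, against 105 CPM in the next. In 5-FU+ICB replicate 2, Pdk4 was 0.155 CPM, against 6.36 CPM in the next tumor. Ucp2 in that tumor was 256 CPM, against 749 CPM in the next. The choice of scale mattered. On CPM, compared after seeing the data, 7 values stood apart, and 2 of them, Cpt1a and Acadl in cisplatin+ICB replicate 1, were the same. The other 5 were Acadm in that tumor, at 116 CPM against 58.2 CPM in the next, Ppargc1a in 5-FU+ICB replicate 2, at 8.77 against 3.32 CPM, Pparg and Pdk4 in ICB replicate 3, at 10.5 against 4.85 CPM and 11.5 against 3.37 CPM, and Ppara in PBS replicate 1, at 0.243 against 0.0678 CPM. These CPM are TMM-scaled, and cisplatin+ICB replicate 1 had the lowest TMM factor, 0.685. Whether its values stand apart when scaled by library totals was not tested.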

How the results depend on the processing

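Muscle and fat covariates were added after seeing the data. For ICB against PBS, 4 members passed, and 7 did with the muscle covariate, 2 in the joined fit of 6 groups and 2 in the cisplatin matrix (Cd36 and Ucp2 in both). Leaving out 1 tumor gave 3 to 4. For 5-FU against PBS the number was 3, 1 with no filter on low counts, 0 in the joined fit, and 0 to 4 with 1 tumor left out. For 5-FU+ICB against PBS it was 6, and 2 to 6 with 1 tumor left out. 5-FU+ICB against 5-FU gave 0, 1 (Ucp2) with the muscle covariate and 0 to 1 with 1 tumor left out, as did the interaction of 5-FU and ICB and 5-FU+ICB against cisplatin+ICB (0 to 1). Cisplatin+ICB against PBS gave 1, 2 by DESeq2, 2 with the muscle covariate, 0 with the compared groups alone and 0 to 5 with 1 tumor left out. Cisplatin+ICB against ICB gave 0, and 1 (Ucp2, lower) with the muscle covariate. Cisplatin+ICB against cisplatin gave 0, 1 by DESeq2 and 0 to 2 with 1 tumor left out. The causes were not tested. Under the settings that kept all tumors, 115 of these counts stayed within 1.5 times and 12 did not. A count of 0 that stayed 0 was included in the 115, and most comparisons had 0 members in the main test. A change from 6 to 4 also fell within 1.5 times, so the 115 is not a measure of stability. With the replicate block, 5-FU+ICB against PBS gave 4, 5-FU against PBS 2, ICB against PBS 4, and cisplatin+ICB against PBS 0. The labels do not say that a number pairs tumors, same-numbered tumors had a mean correlation of 0.0119 in the 5-FU matrix and -0.0499 in the cisplatin matrix, and 1 of 19 and 5 of 18 correlated best with their own number. The fold changes of single members whose calls changed stand with each member above. The sign changed for 6 of the 50 member values given, in 12 of 446 fits that kept all tumors, and for 5 in 9 of 485 fits with 1 tumor left out. None of these values passed, and all lay between -0.21 and 0.17. Hadha after ICB was 0.0021 with DESeq2's size factors, 0.046 with no filter and 0.021 with the strict filter. Acadl after ICB was 0.033 with no filter and 0.0048 with the strict filter. Hadha after 5-FU+ICB was -0.017 with the muscle covariate and -0.019 with the fat covariate. Ucp2 after 5-FU was -0.015 with the replicate block, -0.12 with the muscle covariate and -0.14 with the fat covariate. In 5-FU+ICB against ICB, Pparg was -0.21 and Ppargc1a 0.17 with the fat covariate. With 1 tumor left out, the value against PBS ran from -0.15 to 0.027 for Hadha after ICB, -0.023 to 0.10 for Hadha after 5-FU+ICB, -0.15 to 0.045 for Acadl after ICB, -0.13 to 0.31 for Ucp2 after 5-FU and -0.11 to 0.34 for Cd36 after cisplatin. The mean of Acadm in 5-FU was 51.8 CPM when scaled by library totals.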

Other observations

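Among the members themselves, as a description over the 28 tumors, the log2 CPM of Acadm and Acadl had a Pearson's r of 0.737, that of Cpt1a and Acadm -0.774, that of Cd36 and Ucp2 0.752, and that of Pparg and Ppargc1a -0.668. Cisplatin+ICB replicate 1 was the lowest of the 28 tumors for Pparg, Cpt1a and Ucp2 and the highest for Acadm and Acadl. It is among these points, which share libraries and depth.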
